A study of Homo sapiens with 6 samples.

Results

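Metallothioneins and the zinc response genes that go with them were followed in BE(2)-M17 cells, a human neuroblastoma line labelled as neuroblast, after CRISPR-Cas9 knockdown of the long non-coding RNA LINC00894. The genes were chosen by symbol, as metallothioneins, the transcription factor MTF1 and the zinc exporter SLC30A1. Of 10 genes named, 5 were measured: MT2A, MT1X, MT1F, MTF1 and SLC30A1, out of 40111 genes in the deposited table. MT1A, MT1E, MT1G, MT1M and MT3 were not analysed here. The 3 knockdown libraries carry the genotype label LINC00894 knockdown, and the 3 control libraries carry the label NC. Both come from the same cell line, and the labels give no treatment, time point or clone. Whether replicate libraries began as separate cultures is not stated, so the p-values here may rest on technical spread alone.

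Metallothioneins are small cysteine-rich proteins that bind zinc, copper and cadmium and buffer the free zinc of the cytosol. When free zinc rises, the zinc finger protein MTF1 binds it, enters the nucleus and switches on metallothionein genes and SLC30A1 through short promoter sequences called metal response elements. SLC30A1 sits in the plasma membrane and carries zinc out of the cell, while importers of the SLC39 family carry it in. Metallothionein genes are also known to respond to glucocorticoids and oxidants.

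The promoters of the measured genes are shown because they can carry the elements through which MTF1 acts. RefSeq (GRCh38.p14) gave a window of 250 bases before and 50 bases after the transcription start for 4 of the 5 genes, and MT1F is named only. A metal response element core was searched as TGCACNC, and in a variant form as TGCGCNC, where N is any base, on both strands. The matches, none of which overlaps another, are in capitals. Each window is printed 5′ to 3′ on the strand of its gene. MT2A lies at chr16:56608334-56608633 (plus strand), MT1X at chr16:56682220-56682519 (plus strand), SLC30A1 at chr1:211579112-211579411 (minus strand) and MTF1 at chr1:37859543-37859842 (minus strand).
MT2A: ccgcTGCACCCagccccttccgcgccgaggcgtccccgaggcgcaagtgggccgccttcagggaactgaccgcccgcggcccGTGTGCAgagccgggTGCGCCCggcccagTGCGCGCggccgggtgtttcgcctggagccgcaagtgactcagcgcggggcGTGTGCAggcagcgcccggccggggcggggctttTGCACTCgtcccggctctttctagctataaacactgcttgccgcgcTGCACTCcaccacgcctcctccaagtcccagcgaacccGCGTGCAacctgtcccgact
MT1X: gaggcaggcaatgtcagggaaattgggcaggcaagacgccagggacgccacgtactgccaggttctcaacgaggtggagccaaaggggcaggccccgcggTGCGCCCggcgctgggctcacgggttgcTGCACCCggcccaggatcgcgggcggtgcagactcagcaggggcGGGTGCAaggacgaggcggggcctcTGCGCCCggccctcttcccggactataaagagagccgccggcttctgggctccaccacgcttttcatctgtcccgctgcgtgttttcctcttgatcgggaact
SLC30A1: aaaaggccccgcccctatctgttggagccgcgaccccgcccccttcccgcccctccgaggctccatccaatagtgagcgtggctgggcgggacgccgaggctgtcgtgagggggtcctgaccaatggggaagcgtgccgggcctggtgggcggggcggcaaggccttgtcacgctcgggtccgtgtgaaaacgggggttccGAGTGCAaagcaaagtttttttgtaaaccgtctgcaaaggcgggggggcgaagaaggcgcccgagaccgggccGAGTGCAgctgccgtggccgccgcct
MTF1: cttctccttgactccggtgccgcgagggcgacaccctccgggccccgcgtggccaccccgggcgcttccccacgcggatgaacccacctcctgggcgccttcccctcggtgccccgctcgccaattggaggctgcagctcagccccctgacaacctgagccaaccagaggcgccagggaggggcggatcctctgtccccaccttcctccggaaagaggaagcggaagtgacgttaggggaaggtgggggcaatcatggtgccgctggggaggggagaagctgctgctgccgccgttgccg

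The MT2A window held 8 matches, and 0.0200% of 34943 promoter windows of the same length held as many. Of these, 7 began upstream of the start, at 246, 168, 153, 139, 88, 54 and 8 bases before it, and 1 began at base 31 of the transcript. The MT1X window held 4 matches, at 150, 122, 78 and 53 bases before the start, a number reached by 0.598% of windows. The SLC30A1 window held 2, at 49 bases before the start and at base 25 of the transcript, and 8.58% of windows held at least as many. The MTF1 window held 0, and 29.5% of all windows held at least 1. The core promoter box bound by the TATA-binding protein was searched as TATAAA. It matched on the strand of the gene 29 bases before the start of MT2A and 30 bases before that of MT1X, and 7.35% of windows held it. The pairs of heat shock element units, searched as GAANNTTC in one arrangement and as TTCNNGAA in the other, both the same on either strand, matched in none of these 4 windows and in 13.5% of all windows. A match is a description of the letters and shows no binding.

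**Figure D1:**
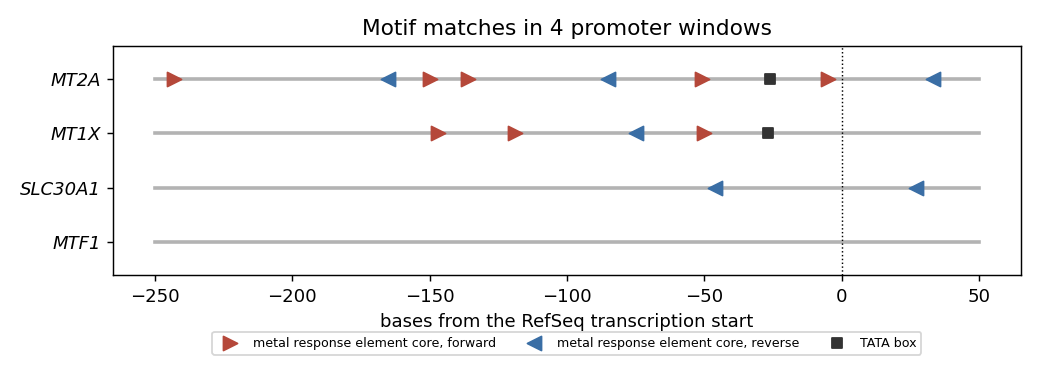
Position of motif matches in the promoter windows of MT2A, MT1X, SLC30A1 and MTF1, in bases from the RefSeq transcription start (x axis). Triangles are metal response element cores on either strand and squares are TATA boxes, and the matches run 8, 4, 2 and 0 from MT2A to MTF1.

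Values per library were FPKM, reads scaled to the length of the gene model and to the depth of the library. Whole reads worked out from them came to between 22898079 and 28782977 per knockdown library and between 29276653 and 48089716 per control library. The targeted gene went with its labels, since LINC00894 read 1.10, 1.303 and 0.867 FPKM in knockdowns 1, 2 and 3, against 2.00, 2.24 and 2.21 FPKM in controls 1, 2 and 3. Control 1 stood apart from controls 2 and 3. The chi-square per gene of the reads was 70.2 and 80.2 for control 1 against controls 2 and 3. It was 11.5 for control 2 against control 3. In 60.8% of 18548 genes tested, control 1 lay closer to the mean of the knockdowns than to the mean of controls 2 and 3. The same share was not worked out for the other controls. Of 13 neuroblast markers measured, 8 stayed under 0.5 FPKM in every library, PHOX2A, NEFM, STMN2, DBH, CHGB and MYCN among them. Most markers of the labelled cell type were thus low, and the identity of the cells was not tested. MYCN, whose gene is known to be amplified in this line, had 0.267, 0.162 and 0.173 FPKM in the knockdowns and 0.235, 0.199 and 0.168 FPKM in the controls. Other markers of the list were present. GATA3 had 5.21, 5.58 and 5.43 FPKM in the knockdowns and 5.07, 4.18 and 4.12 FPKM in the controls. Over the 6 libraries ISL1 lay between 3.80 and 5.66 FPKM, HAND2 between 1.26 and 1.71 FPKM and NEFL between 1.06 and 1.85 FPKM. CHGA had 0.953, 0.618 and 0.885 FPKM in the knockdowns and 0.429, 0.419 and 0.428 FPKM in the controls, without overlap. Of 5 neuroblast markers tested, 0 passed limma, 2 were higher at an unadjusted p under 0.05, and 1, CHGA, passed limma-voom. Without control 1, 3 passed limma as higher. In bulk RNA, fewer cells of a type and less RNA per cell cannot be told apart.

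Of the metallothioneins, MT2A was the most abundant. It was higher in every knockdown library than in any control, with a fitted difference of 1.43-fold, and did not pass the test over all genes. MT2A (ENSG00000125148, chromosome 16, 56608199 to 56609497, plus strand, matched by gene ID in GENCODE 29 on GRCh38) is the main metallothionein of many human cell types. It had 26.4, 30.1 and 27.4 FPKM in knockdowns 1, 2 and 3, against 24.6, 17.8 and 16.8 FPKM in controls 1, 2 and 3. The groups did not overlap, and control 1 lay closer to the knockdowns than to the other controls. The means were 27.96 ± 1.90 FPKM in the knockdown and 19.7 ± 4.21 FPKM in the control (SD, n = 3 each), from 552 to 779 reads and from 657 to 784 reads per library. The log2 fold change was 0.52 (SE 0.15) on the log2(FPKM + 0.1) scale, with an adjusted p of 0.0769 in limma.

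MT1X was also above every control in each knockdown library, at a level far below that of MT2A. MT1X (ENSG00000187193, chromosome 16, 56682424 to 56684196, plus strand) is another zinc-binding isoform of the same gene cluster. It had 1.82, 1.41 and 1.83 FPKM in the knockdowns, against 1.11, 0.650 and 0.831 FPKM in the controls, and control 1 was again the highest control. The lowest knockdown library stood above the highest control. The log2 fold change was 0.91 (SE 0.23), 1.88-fold, with a limma adjusted p of 0.0603. With a pseudocount of 1 FPKM it was 0.53, against 0.50 for MT2A at the same setting. This rests on 69 to 91 reads per knockdown library and 54 to 62 reads per control library. GENCODE 29 places a processed transcript, AC026461.1, on the same strand over 1727 bases of MT1X, and reads of the pair cannot be told apart there.

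MT1F was the metallothionein with no separation of the groups. MT1F (ENSG00000198417, chromosome 16, 56657694 to 56660698, plus strand) had 0.849, 1.64 and 1.52 FPKM in the knockdowns and 1.79, 1.84 and 1.37 FPKM in the controls. The groups overlapped, and knockdown 1, with 36 reads, was the lowest library. The log2 fold change was -0.34 (SE 0.27, limma adjusted p = 0.41), with a 95% interval from -0.98 to 0.30. It was -0.06 without knockdown 1, -0.50 without knockdown 2 and -0.20 with a pseudocount of 1 FPKM. In the knockdown the levels of MT1X and MT1F overlapped, at 1.69 ± 0.240 and 1.34 ± 0.426 FPKM, while in the control MT1F was above MT1X in all 3 libraries, at 1.67 ± 0.256 and 0.863 ± 0.230 FPKM (SD, n = 3). Whether the response of MT1F differs from that of MT1X was not tested.

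Metallothionein copies are close in sequence, so the split of reads between MT2A, MT1X and MT1F is uncertain, and they were also summed. Gene lengths differ, so a misplaced read also changes the sum. Over these genes, the level was 29.04, 33.1 and 30.8 FPKM in knockdowns 1, 2 and 3, against 27.4, 20.3 and 19.0 FPKM in controls 1, 2 and 3. Every knockdown library was above every control, with means of 31.0 ± 2.05 and 22.3 ± 4.55 FPKM in the knockdown and the control (SD, n = 3 each), a log2 ratio of 0.48. MT2A made up 90.8%, 90.8% and 89.1% of the sum in the knockdowns and 89.4%, 87.7% and 88.4% in the controls. The gene MT1HL1 and the pseudogenes MT1P3, MT2P1 and MT1IP were too low to test, and the pseudogenes MT1P1 and MT1XP1 had log2 fold changes of -1.46 (SE 0.89) and 0.37 (SE 0.59), with limma adjusted p of 0.293 and 0.693. MT1P1 reached at most 1.16 FPKM in the knockdown and 1.14 FPKM in the control, and its log2 fold change ran between -2.43 and -0.60 with 1 library left out. MT1XP1 reached 1.88 FPKM in knockdown 1, where MT1X had 1.82 FPKM, and 1.10 FPKM in control 1, from 8 and 6 reads.

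**Figure D2:**
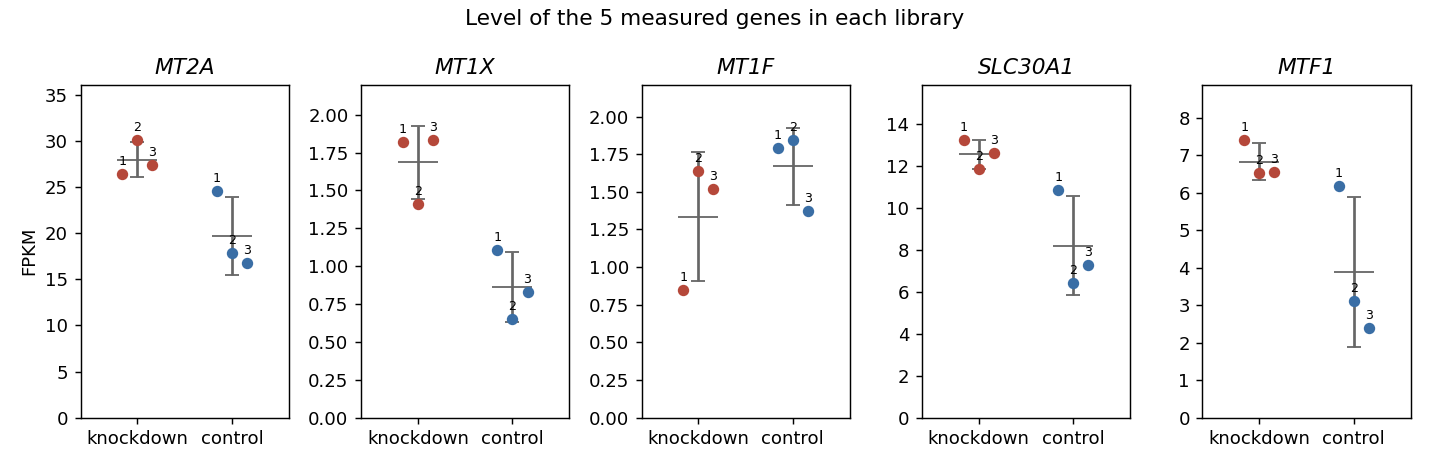
FPKM (y axis, linear from 0) of MT2A, MT1X, MT1F, SLC30A1 and MTF1 in each knockdown and control library. Points are libraries numbered by replicate, and the bar and whiskers are the mean and SD (n = 3). MT1F is the gene whose groups overlap, and control 1 is the highest control for the other 4.

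SLC30A1, which exports zinc across the plasma membrane, was above every control in each knockdown library and did not pass the test over all genes. SLC30A1 (ENSG00000170385, chromosome 1, 211571568 to 211578742, minus strand) had 13.2, 11.8 and 12.6 FPKM in the knockdowns, against 10.9, 6.42 and 7.28 FPKM in the controls. The groups did not overlap, and control 1 was the nearest control. The means were 12.6 ± 0.686 FPKM in the knockdown and 8.18 ± 2.35 FPKM in the control (SD, n = 3 each), from 1782 to 2139 and from 1818 to 1873 reads per library. The log2 fold change was 0.65 (SE 0.19), 1.565-fold, with a limma adjusted p of 0.0808. In the authors' deposited table SLC30A1 had a log2 fold change of 0.51 with an adjusted p of 0.0291.

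MTF1, the zinc sensor itself, was above every control in each knockdown library, and its controls were widely spread. MTF1 (ENSG00000188786, chromosome 1, 37809567 to 37859620, minus strand) had 7.40, 6.53 and 6.55 FPKM in the knockdowns, against 6.17, 3.11 and 2.39 FPKM in the controls. Control 1 was 1.15 above controls 2 and 3 on the log2 scale while the knockdown mean was 0.14 above control 1. The log2 fold change was 0.91 (SE 0.32), 1.88-fold, with a limma adjusted p of 0.113. A processed pseudogene on the other strand, AL929472.4, lies within MTF1 and had at most 4 reads in any library.

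On the FPKM scale, the order was MT2A, SLC30A1 and MTF1, each clear of the next in all 6 libraries, with MT1X and MT1F lowest. This order rests on the gene lengths used, 914 bases for MT2A, 1727 for MT1X, 1852 for MT1F, 5893 for SLC30A1 and 7989 for MTF1. In reads, MT2A had 552 to 784 and SLC30A1 1782 to 2139 per library. The lengths were not checked against the transcripts present, so the order of genes of unlike length is uncertain. Among the 4 genes other than MT1F, Pearson r over the 6 libraries lay between 0.87 and 0.97 on the log2(FPKM + 0.1) scale. These r values are a description, since the libraries differ in group, and every control library was deeper than every knockdown library. MT1F had r of -0.18 with MT2A and -0.54 with MT1X.

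None of the 5 genes passed limma at an adjusted p under 0.05 over 18548 genes, where 4.14% of genes passed as higher in the knockdown and 2.06% as lower. At an unadjusted p under 0.05, 4 of the 5 were higher in the knockdown, against 21.0% of all genes, and in those 4 the knockdown libraries all lay above every control, as in 23.9% of genes. The 5 genes were chosen with earlier results of these data known, so their counts beside the shares of all genes are a description only. The median log2 fold change of the 5 was 0.65, and that of all genes tested was 0.07. Limma-voom on the recovered reads put 4 of the 5 past an adjusted p under 0.05, against 12.4% of genes, with adjusted p of 0.0415 for MT2A, 0.035 for MT1X, 0.0362 for SLC30A1, 0.0499 for MTF1 and 0.434 for MT1F. With median-of-ratios size factors the median of all genes moved to -0.05, 337 genes passed as higher and 496 as lower in place of 768 and 382, and the log2 fold changes of MT2A, MT1X, SLC30A1 and MTF1 were 0.40, 0.80, 0.52 and 0.79. In the authors' deposited table the adjusted p of MT1X, MT2A, MTF1 and MT1F were 0.0873, 0.115, 0.333 and 0.579.

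**Figure D3:**
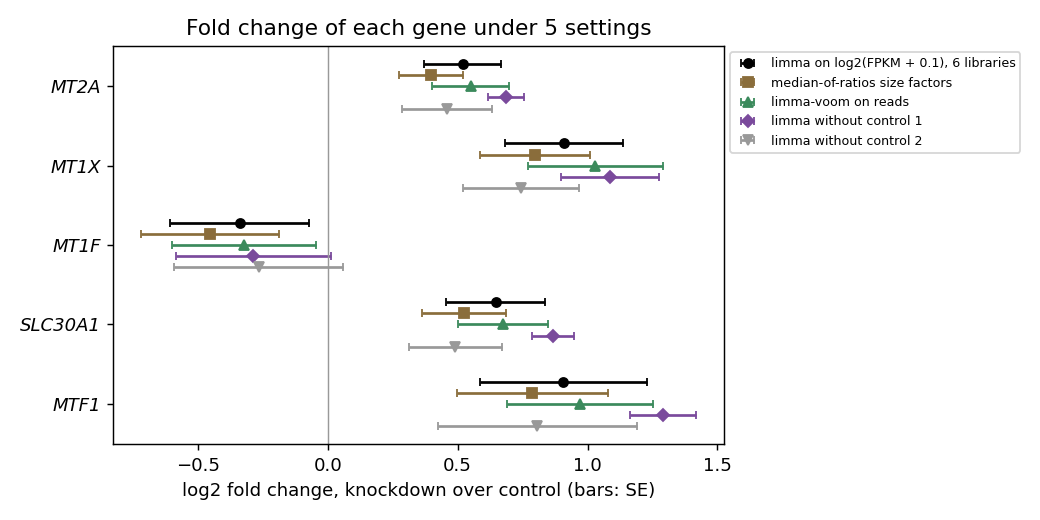
Log2 fold change of knockdown over control (x axis, bars are SE) for the 5 genes under 5 settings of the test. MT2A, MT1X, SLC30A1 and MTF1 stay above 0 and MT1F below it under each setting drawn, and the values without control 1 are the highest for the first 4.

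Whether MT2A, MT1X, SLC30A1 and MTF1 passed limma on the FPKM scale depended on control 1, while limma-voom passed them with control 1 kept. Without it, these 4 passed limma, as did 28.8% of genes in that direction, with log2 fold changes of 0.69, 1.09, 0.87 and 1.29 and adjusted p of 0.00137, 0.00628, 0.00112 and 0.0013. Control 1 exceeded controls 2 and 3 by 0.50, 0.53, 0.66 and 1.15 on the log2 scale in the same genes, and the knockdown mean exceeded control 1 by 0.18, 0.56, 0.21 and 0.14. In 3 of the 5 genes control 1 lay closer to the knockdown mean than to controls 2 and 3. That was so for 60.8% of all genes tested, so this placement is not particular to the zinc response genes. With any of the other 5 libraries left out, 0 of the 5 genes passed limma, and 0 of all genes did, with 3602 to 4479 genes at an unadjusted p under 0.05.

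Genes induced by metals and by protein damage also had control 1 beside the knockdowns. Of 8 listed, 0 passed limma, 6 had an unadjusted p under 0.05, 3 passed limma-voom, and 8 passed limma without control 1. All 8 had a positive log2 fold change with a median of 1.69, and in 3 the groups did not overlap. HMOX1, a heme-degrading enzyme induced by cadmium and oxidants, had 73.3, 59.999 and 63.7 FPKM in the knockdowns, against 56.6, 16.1 and 15.4 FPKM in the controls (limma adjusted p = 0.104). BAG3, a co-chaperone of HSP70, had 211, 169 and 178 FPKM in the knockdowns and 147, 20.7 and 19.2 FPKM in the controls (limma adjusted p = 0.102). In this list control 1 stood above controls 2 and 3 by a median of 2.69 on the log2 scale, and the median distance of the knockdowns above control 1 was 0.06. What part this plays in the values of the zinc response genes was not tested.

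**Figure D4:**
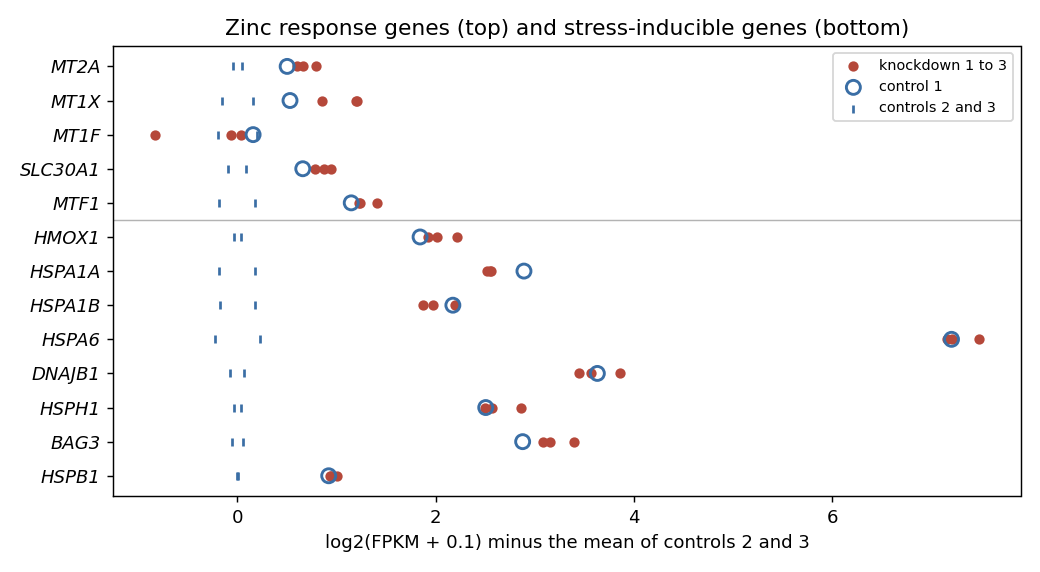
Each library's log2(FPKM + 0.1) minus the mean of controls 2 and 3 (x axis) for the 5 zinc response genes (top) and 8 genes induced by metals and protein damage (bottom). Open circles mark control 1, which lies beside the knockdown points in MT2A, SLC30A1 and MTF1, as in the stress genes, and short of them in MT1X. Control 1 was closer to the knockdown mean than to controls 2 and 3 in 60.8% of all genes tested.

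Blood cell markers also differed between the groups. Of 11 listed, 8 were tested, all 8 had positive log2 fold changes, and 3, the globin genes HBB, HBA2 and HBA1, passed limma (2 with size factors, HBB then having an adjusted p of 0.0506). At an unadjusted p under 0.05, 6 of the 8 were higher. Knockdown libraries lay above every control in 6, as in 23.9% of genes. Limma-voom passed 5, CD14 and LYZ besides the globin genes, and limma without control 1 passed 6. The summed level of the 11 was 521 to 901 FPKM in the knockdowns and 6.28 to 317 FPKM in the controls, and PTPRC, which marks white blood cells, had 0.324, 0.404 and 1.14 FPKM in the knockdowns and was listed at 0 in control 1, with 0.00454 FPKM in control 2 and 0.510 FPKM in control 3. Its groups overlapped. In control 3 the sum was 317 FPKM, of which S100A9 made up 202 FPKM, HBB 61.8 FPKM and S100A8 45.3 FPKM. The groups overlapped for S100A8 and S100A9, and S100A9 had 35.0, 117 and 133 FPKM in knockdowns 1, 2 and 3. In control 2 the sum was 6.28 FPKM. MT2A was 16.8 FPKM in control 3 and 17.8 FPKM in control 2. In control 1 the sum was 9.14 FPKM with MT2A at 24.6 FPKM, and in the knockdowns both were high. The part of blood cell RNA in the values of the zinc response genes was not tested. Of the markers of other cell types, 0 of 2 glial, 0 of 2 fibroblast and endothelial and 0 of 4 epithelial genes tested passed limma, with 0, 0 and 1 at an unadjusted p under 0.05 and 0 of each past limma-voom. The epithelial sum was 36.3 to 38.2 FPKM in the knockdowns and 38.8 to 41.5 FPKM in the controls.

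Of the zinc transporters tested, 0 were called higher, SLC30A1 included, and 1 was called lower. Of 9 further SLC30 genes, which carry zinc out of the cytosol, 6 were tested, 1 was called lower, 0 were called higher, and the median log2 fold change was -0.12, or -0.24 with size factors. The gene that fell was SLC30A3, which loads zinc into synaptic vesicles in neurons, with 2.83, 2.85 and 3.001 FPKM in the knockdowns, against 3.73, 4.41 and 3.93 FPKM in the controls. Its log2 fold change was -0.46 (SE 0.10, limma adjusted p = 0.0493), and its groups did not overlap, as was so for 3 of the 6 genes and, in that direction, for 14.3% of all genes.

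Of 14 SLC39 importers, 10 were tested and 0 passed limma, 2 having an unadjusted p under 0.05 and 1, SLC39A8, passing limma-voom, with 9 of the 10 log2 fold changes negative and a median of -0.16, or -0.28 with size factors, where all 10 were negative. SLC39A8, which also carries manganese and cadmium, had 4.80, 5.11 and 5.04 FPKM in the knockdowns and 5.63, 7.58 and 8.48 FPKM in the controls (log2 fold change -0.51, SE 0.15, limma adjusted p = 0.0842). SLC39A10, whose gene MTF1 represses in mouse and zebrafish, had 14.1, 14.1 and 14.01 FPKM in the knockdowns and 15.0, 20.4 and 23.2 FPKM in the controls (log2 fold change -0.45, SE 0.15, limma adjusted p = 0.107). For both, control 1 was the control nearest to the knockdowns.

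**Figure D5:**
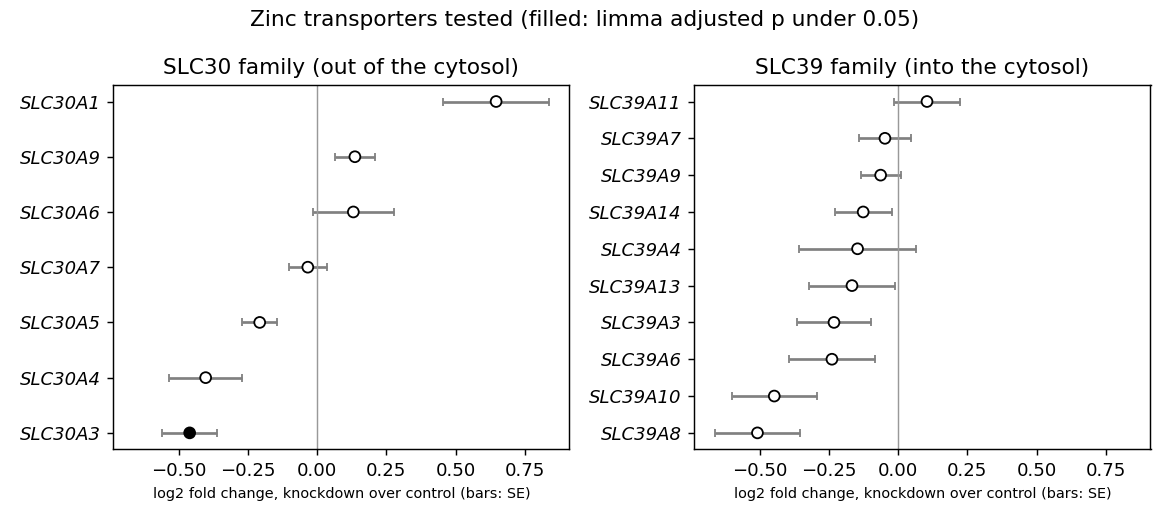
Log2 fold change of knockdown over control (x axis, bars are SE) for the zinc transporters tested, SLC30 exporters with SLC30A1 on the left and SLC39 importers on the right. Filled points have a limma adjusted p under 0.05, which is SLC30A3 alone, and SLC30A1 has the highest value of both families.

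Copper handling genes were followed because metallothioneins also bind copper. Of 8 tested, 0 passed limma, 2 had an unadjusted p under 0.05 and 2 passed limma-voom, with a median log2 fold change of 0.06 that was -0.07 with size factors. SOD1, the copper and zinc superoxide dismutase, had 0.30 (SE 0.07) and ATP7B, a copper exporter, had -0.40 (SE 0.11), with limma adjusted p of 0.0603 and 0.0718. In the glutathione and thioredoxin list, 8 genes were tested, of which 1 rose, 1 fell and 6 stayed short of the threshold, with a median of 0.05 that was -0.07 with size factors. NQO1, a quinone reductase under NRF2 control, rose to 4.01, 3.38 and 3.73 FPKM in the knockdowns, against 2.07, 2.04 and 2.24 FPKM in the controls (log2 fold change 0.78, SE 0.11, limma adjusted p = 0.0339), and control 1 lay with the other controls. SLC7A11, the cystine importer that feeds glutathione synthesis, fell by 0.83 on the log2 scale (SE 0.17, limma adjusted p = 0.0457), and its adjusted p was 0.0502 with size factors.

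Genes of the glucocorticoid response were followed because this hormone axis also acts on MT2A. Of 7 tested, 1 was called lower and 0 were called higher, with a median log2 fold change of -0.08, or -0.21 with size factors. At an unadjusted p under 0.05, 1 was higher and 2 were lower. Limma-voom called 2 lower and 0 higher, and limma without control 1 called 1 higher and 2 lower. KLF9, a transcription factor induced by glucocorticoids, had 17.9, 20.2 and 18.2 FPKM in the knockdowns, against 27.2, 24.9 and 27.7 FPKM in the controls (log2 fold change -0.50, SE 0.08, limma adjusted p = 0.0372). The calls of SLC30A3, NQO1, SLC7A11 and KLF9 were lost without any single library other than control 1, with limma adjusted p between 0.0912 and 0.187.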

How the data were processed

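RNA-seq libraries of 3 knockdown and 3 control samples were assigned to groups by their titles. Per the labels' protocols, polyadenylated RNA was selected on beads and turned into double-stranded cDNA, with no step that marks the strand. The submitters' processing notes name HISAT2, and the counter, build, annotation and test behind the tables are not given in what was used here. The authors deposited FPKM per library, judged from the values, and, per the file headers, their mean read signal per group, log2 fold changes, p-values and adjusted p-values. A second deposited table was not used, and some marker genes are not reported here.

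Whole reads were recovered from the FPKM values and group means with Python 3.11.15 and pandas 2.3.3, and 99.99% of values above 0 came out whole within 0.1 read. Testing used R 4.3.3 and limma 3.58.1 on log2(FPKM + 0.1), two-sided, with group as the only term and a trended variance prior. Benjamini-Hochberg adjustment ran over the 18548 genes that reached 0.5 FPKM in 3 or more of the 6 libraries. Low genes are understated on this scale. The test was also run on simulated reads with known changes. Those had no control library set apart, unlike these data, and the outcome is not given here. Named genes are all members measured, LINC00894, and in each list the genes past the test or else the 2 with the smallest p, plus the 5 genes most and least like MT2A. Alternatives covered scaling, pseudocount, filter, variance trend, limma-voom, a replicate block, threshold and each library left out, and those for genes outside the members were chosen after seeing the data. The members and lists were chosen with earlier results of these data known. Every pair of libraries within a group differed by more than sampling noise, the lowest chi-square per gene being 3.77 for knockdowns 2 and 3. Pairs across the groups were not checked. The gene lengths behind the FPKM were 914 bases for MT2A, 1727 for MT1X, 1852 for MT1F, 7989 for MTF1 and 5893 for SLC30A1, against 1299, 1773, 1889, 8024 and 5474 in GENCODE 29, and the RefSeq starts of MT2A and SLC30A1 lie 385 and 419 bases from the GENCODE 5′ ends.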

Additional observations from a re-analysis of the deposited data

How the results depend on the processing

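Over 13 alternatives, the direction of all 5 members held in 65 of 65 results, and 57 stayed on the same side of the threshold. The other 8 were MT2A, MT1X, SLC30A1 and MTF1 under limma-voom and without control 1, where 4 members passed in place of 0. Leaving out 1 library at a time gave 0 to 4 members and 0 to 8052 of all genes past limma, against 1150 with all 6 libraries. The 0 counts came without each library other than control 1, and unadjusted p under 0.05 was then reached by 3602 to 4479 genes. Of all genes, 42 passed with no filter on low values, 91 with no mean-variance trend, 3130 with limma-voom and 0 at an adjusted p under 0.01, where the smallest was 0.0237. The cause was not tested. For 26 other genes named, 1 of 336 results reversed (MT1XP1, which ran between -0.18 and 0.84 with 1 library left out), 64 lost their call and 23 gained one. The log2 ratio of the summed metallothioneins ran between 0.38 and 0.66 with 1 library left out and was 0.36 with median-of-ratios size factors and 0.46 with the other metallothionein rows added.

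With the replicate number as a block, 0 genes passed limma, with 5990 at an unadjusted p under 0.05. The deviations of same-numbered libraries had r of 0.15, 0.08 and 0.04. Knockdowns 1 and 3 correlated best with the control of the same number, and knockdown 2 with control 3, at 0.10. The labels do not say whether a number marks a pair, and r this low cannot decide it. The depth limits MT1X and MT1F most, with as few as 54 and 36 reads in a library.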

Other observations

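Among 7521 genes with a mean of at least 5 FPKM, those most like MT2A over the 6 libraries, by Pearson r of log2(FPKM + 0.1), were PPP2R5A, ZDHHC7, PPFIA1, NRN1 and ODR4, with r between 0.994 and 0.996. NRN1, a membrane-anchored factor that promotes neurite growth, had 26.9, 32.5 and 27.7 FPKM in the knockdowns, against 24.3, 17.8 and 16.6 FPKM in the controls. The size of its difference was close to that of MT2A, with a log2 fold change of 0.58 (SE 0.16) and a limma adjusted p of 0.0678. ZDHHC7, a palmitoyltransferase, had 22.01, 23.4 and 22.7 FPKM in the knockdowns and 20.7, 16.1 and 15.9 FPKM in the controls.

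The genes most opposed to MT2A were TMX4, ERO1B, SLC18B1, MT-RNR2 and HSPA13, with r between -0.998 and -0.991. ERO1B, an oxidase of the endoplasmic reticulum, had 10.7, 10.4 and 10.8 FPKM in the knockdowns, against 11.2, 13.1 and 13.3 FPKM in the controls. None of these 10 genes passed limma, with adjusted p between 0.0678 and 0.371. In each, control 1 was the control nearest to the knockdowns. This follows from their selection by r with MT2A, where control 1 is placed the same way.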
